A study of Mus musculus with 6 samples.

Results

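The immunity-related GTPases (IRGs) are a family of interferon-induced GTPases of the mouse. The 7 members described here, Irgm1, Irgm2, Igtp, Iigp1, Tgtp1, Tgtp2 and Ifi47, were found by gene name among the 47643 genes of the deposited tables, and each name matched 1 row. RNA was sequenced from CD4+ FOXP3-GFP+ cells, the regulatory T cells that express the transcription factor FOXP3, flow-sorted from mouse bone marrow. The myeloma group holds 3 libraries (replicates 3, 4 and 5) from mice that had been given Vk*MYC cells, which grow as a mouse form of the plasma cell tumour multiple myeloma, and the control group holds 3 libraries (replicates 1, 3 and 5) from control mice. The cells of both groups carried the FOXP3-GFP reporter. The labels do not give strain, age, time after injection or what the control mice received. According to its title the series is about IFNAR1, a chain of the type I interferon receptor, and the growth of regulatory T cells in myeloma, so the comparison asks how these cells differ between myeloma-bearing and control marrow.

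In mouse cells interferon gamma, and to a lesser degree type I interferon, switches on IRG genes. The effector IRGs, called GKS proteins after the letters glycine, lysine and serine in their nucleotide-binding loop, coat and break the vacuoles of parasites such as Toxoplasma gondii. The regulators Irgm1, Irgm2 and Igtp (also called Irgm3), called GMS proteins because a methionine stands in place of that lysine, sit on host membranes and keep the effectors inactive there. In mouse CD4+ T cells, Irgm1 is known to protect against cell death triggered by interferon gamma.

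The split into regulators and effectors can be read in the coding sequence of the nucleotide-binding loop. It is shown for the 6 members on chromosome 11, from GENCODE M21 transcripts (GRCm38), on the sense strand from 5′ to 3′, with the codon for methionine or lysine in capitals. The longest open reading frame of each gene was used.

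Irgm1: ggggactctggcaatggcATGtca
Irgm2: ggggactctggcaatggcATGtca
Igtp: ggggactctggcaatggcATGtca
Tgtp1: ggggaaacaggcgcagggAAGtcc
Tgtp2: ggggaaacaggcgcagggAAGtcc
Ifi47: gggcagtctgggactggcAAGtcc

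These 24 bases were identical in the 3 regulators and identical in Tgtp1 and Tgtp2. Over the whole aligned coding sequence the 3 regulators shared 67.3% to 73.1% of bases with each other. Regulators and effectors shared 57.2% to 61.7%. Tgtp1 and Tgtp2 were alike at 1244 of 1248 bases, or 99.7%. The other pairs of effectors shared 60.1% to 64.4%, which overlaps the range between regulators and effectors.

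All 7 members were higher in regulatory T cells from myeloma marrow than in those from control marrow. Fold changes ran from 2.24 for Irgm2 to 4.56 for Iigp1, and in each of the 7 genes every myeloma library lay above every control library. Values are CPM, the counts of a gene scaled to a common library size, taken from the authors' expected counts with TMM scaling, and were tested with edgeR's quasi-likelihood test over all 13235 genes with enough counts, with Benjamini-Hochberg adjustment and a threshold of 0.05. Called higher were 7 of 7 members, against 6.33% of all genes tested, and 0 were called lower, against 4.69%. All 3 myeloma libraries lay above all 3 control libraries in 17.3% of all genes tested, and the groups lay apart in either direction in 33.3%. All 7 members passed the filter on low counts. In RNA from sorted cells, more cells of a type and more RNA per cell cannot be told apart.

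**Figure D1:**
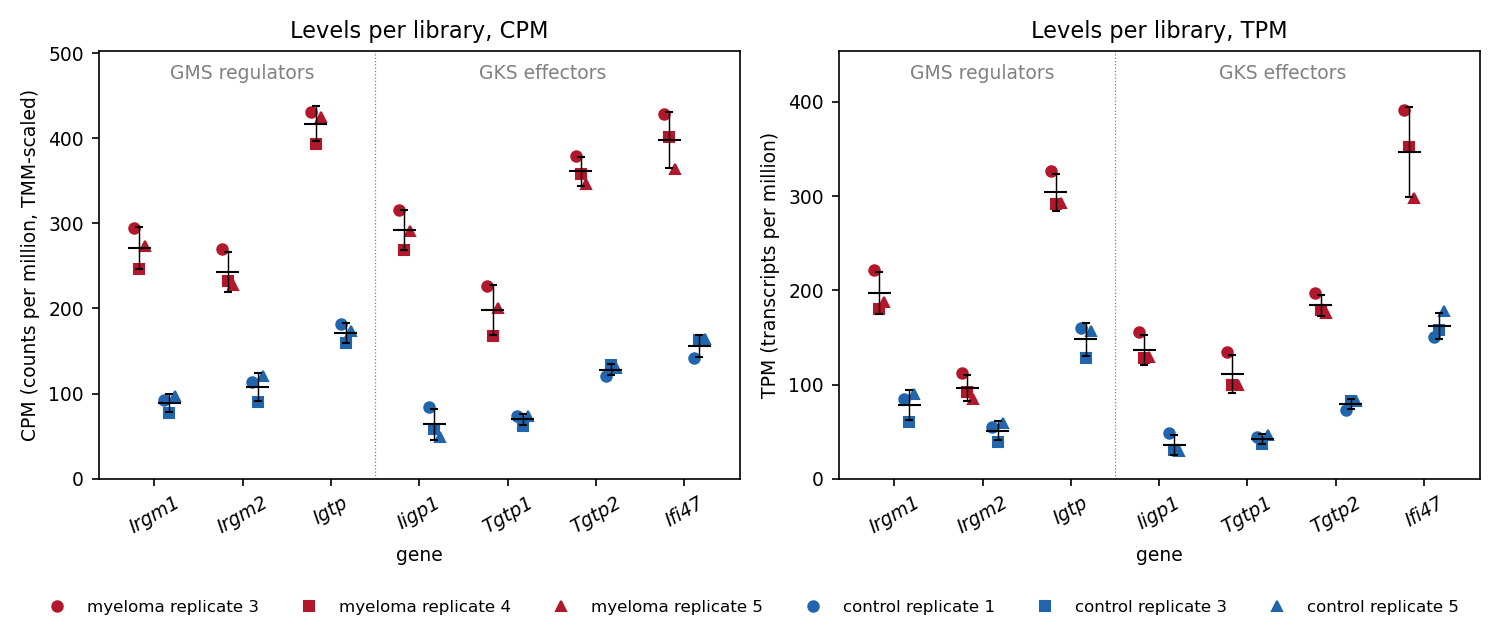
Level of each IRG member in each library, as TMM-scaled CPM (left) and as the authors' TPM (right), with the group mean (wide bar) and SD (n = 3 each). In both units the red myeloma points of every gene lie above its blue control points.

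The regulators are taken first. Irgm1, at chr11:48861968-48871683 on the minus strand of GRCm38, had 295, 246 and 273 CPM in myeloma replicates 3, 4 and 5, against 92.1, 77.1 and 97.2 CPM in control replicates 1, 3 and 5. The lowest myeloma library was 2.53 times the highest control. Means were 271 ± 24.5 CPM in myeloma and 88.8 ± 10.4 CPM in control cells (SD, n = 3 each), and the log2 fold change was 1.61 (SE 0.11, 95% interval 1.36 to 1.86, adjusted p = 8.51e-05). Irgm1 had the greatest fold change of the 3 regulators.

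Igtp, at chr11:58199556-58207591 on the plus strand, encodes a regulator found on the endoplasmic reticulum and lipid droplets. It had 431, 393 and 425 CPM in the myeloma libraries, against 182, 159 and 173 CPM in the control libraries. Means of 417 ± 20.5 CPM in myeloma and 171 ± 11.7 CPM in control cells made it the member with the most counts in either group. Its log2 fold change was 1.28 (SE 0.09, 95% interval 1.08 to 1.48, adjusted p = 8.19e-05).

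Irgm2, a regulator of the Golgi apparatus, lies at chr11:58199618-58222782 on the plus strand and overlaps Igtp. It had 270, 232 and 228 CPM in the myeloma libraries, against 114, 90.2 and 121 CPM in the control libraries. Its groups lay nearest to each other of the 7 members, with the lowest myeloma library 1.88 times the highest control. The log2 fold change was 1.17 (SE 0.12, 95% interval 0.89 to 1.45, adjusted p = 0.000829). Of the 50-base windows in the transcripts of Igtp, 12.3% also occur in Irgm2, so a small part of the reads of this pair was divided by a model.

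Among the effectors, Iigp1 (also called Irga6, an effector that loads onto the membrane of parasite vacuoles) had the greatest fold change of the family. The gene lies at chr18:60376027-60392634 on the plus strand, away from the other members. Iigp1 had 317, 269 and 291 CPM in the myeloma libraries, against 84.3, 58.4 and 49.4 CPM in the control libraries. Relative to their mean, the control libraries spread more widely than the myeloma libraries, with 292 ± 23.8 CPM in myeloma and 64.0 ± 18.1 CPM in control cells. The log2 fold change was 2.19 (SE 0.18, 95% interval 1.79 to 2.59, adjusted p = 0.000203). Over the 6 fits that each left out 1 library it ran from 2.02 (without control replicate 5) to 2.43 (without control replicate 1, the highest control library).

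Tgtp1 and Tgtp2 are near-identical copies of the effector Irgb6, which reaches the vacuole of Toxoplasma among the first IRGs. Tgtp2, at chr11:49057194-49064206 on the minus strand, had 379, 358 and 346 CPM in the myeloma libraries, against 121, 133 and 130 CPM in the control libraries. Its groups were tight, and its log2 fold change of 1.49 (SE 0.08, 95% interval 1.31 to 1.68, adjusted p = 3.72e-05) had the smallest p of the 7 members. Tgtp1, at chr11:48985327-48994172 on the minus strand, had 226, 168 and 201 CPM in the myeloma libraries, against 73.5, 61.7 and 73.8 CPM in the control libraries. Its log2 fold change of 1.51 (SE 0.13, 95% interval 1.23 to 1.79, adjusted p = 0.000222) was within its error that of Tgtp2.

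The division of reads between the copies is uncertain, since 89.4% of the 50-base windows of the Tgtp1 transcripts also occur in Tgtp2. Tgtp1 also overlaps Gm12185, and the library kit does not mark strand. Tgtp1 made up 37.4%, 31.9% and 36.7% of the pair's CPM in myeloma replicates 3, 4 and 5, against 37.7%, 31.6% and 36.1% in control replicates 1, 3 and 5. The groups overlapped in this share. Summed into 1 feature, which does not depend on the division, the pair had 606, 526 and 547 CPM in the myeloma libraries, against 195, 195 and 204 CPM in the control libraries. The summed pair had a log2 fold change of 1.5 (adjusted p = 5.31e-05).

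Ifi47 (also called Irgd), an IRG whose part in resistance to infection is less well known, lies at chr11:49076587-49096974 on the plus strand. It had 429, 401 and 364 CPM in the myeloma libraries, against 142, 163 and 164 CPM in the control libraries. The log2 fold change was 1.35 (SE 0.10, 95% interval 1.13 to 1.57, adjusted p = 0.000114). The olfactory receptor gene Olfr56, which overlaps Ifi47 and shares 3.71% of its windows, had 4.74, 3.67 and 6.97 CPM in the myeloma libraries, against 1.79, 1.37 and 2.03 CPM in the control libraries, so it held few of the reads of this stretch.

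Levels can be set side by side between genes only per length, as the authors' TPM, a transcript abundance scaled for library total and effective length. In myeloma cells Ifi47 came first with 392, 352 and 298 TPM, and Igtp next with 327, 292 and 293 TPM, and these neighbours overlapped. Irgm1 (197 ± 22.3 TPM) and Tgtp2 (184 ± 11.4 TPM) came after a gap and overlapped each other. Iigp1 (137 ± 16.0 TPM), Tgtp1 (111 ± 20.0 TPM) and Irgm2 (96.3 ± 14.1 TPM) followed below a further gap, and each overlapped the next.

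In control cells Ifi47 (162 ± 14.1 TPM) and Igtp (148 ± 17.7 TPM) again led and overlapped. Tgtp2 (79.3 ± 5.51 TPM), Irgm1 (78.4 ± 16.0 TPM), Irgm2 (51.1 ± 10.4 TPM), Tgtp1 (42.5 ± 5.3 TPM) and Iigp1 (35.8 ± 10.8 TPM) came after them. In this order neighbours overlapped, except that Igtp lay above Tgtp2 and Irgm1 above Irgm2. Iigp1 was the fifth member by mean TPM in myeloma cells and the last in control cells. Among all 13235 genes tested, Iigp1 ranked 924 by TPM in myeloma cells, against 4328 in control cells. Ifi47 ranked 338 in myeloma cells, against 831 in control cells.

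The 7 members together had 2348, 2066 and 2129 CPM in myeloma replicates 3, 4 and 5, against 809, 743 and 809 CPM in control replicates 1, 3 and 5. The sums were 2.77-fold higher in myeloma cells as CPM, and 2.31-fold higher as TPM, with 1377 ± 144 TPM in myeloma and 597 ± 55.6 TPM in control cells. The groups lay apart in both units. With 3 libraries a group the smallest p of a two-sided exact permutation test is 0.1, so such sums, shares and ratios are given as descriptions.

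The make-up of the family differed less than its level. The 3 regulators made up 42.4%, 42.1% and 43.5% of the family's CPM in the myeloma libraries, against 48.0%, 43.9% and 48.4% in the control libraries. These shares lay apart, narrowly, with a mean difference of -4.07 percentage points, and in TPM the groups overlapped, with 42.9%, 42.7% and 44.6% in myeloma and 48.7%, 42.5% and 47.7% in control libraries. Without any 1 library the mean difference in CPM stayed below 0, from -5.48 to -3.27 percentage points. The effector Iigp1 made up 10.1%, 9.64% and 10.2% of the family's TPM in the myeloma libraries, against 7.84%, 5.68% and 4.5% in the control libraries. By log2 fold change the regulator Irgm1 (1.61) stood above the effectors Tgtp1 (1.51), Tgtp2 (1.49) and Ifi47 (1.35), while Igtp (1.28) and Irgm2 (1.17) stood below. How far the lower share of the regulators reflects Iigp1 alone was not tested.

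Ratios between single members, in TPM, were not among the planned measures. Each sets a member of greater fold change over one of smaller, so it restates the fold changes above. The effector Iigp1 was set against the regulator Igtp. This ratio was 0.477, 0.436 and 0.439 in the myeloma libraries, against 0.301, 0.238 and 0.184 in the control libraries, with the groups apart. Among the regulators, the ratio of Irgm1 to Irgm2 was 1.98, 1.95 and 2.22 in the myeloma libraries, against 1.56, 1.53 and 1.52 in the control libraries, also apart.

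**Figure D2:**
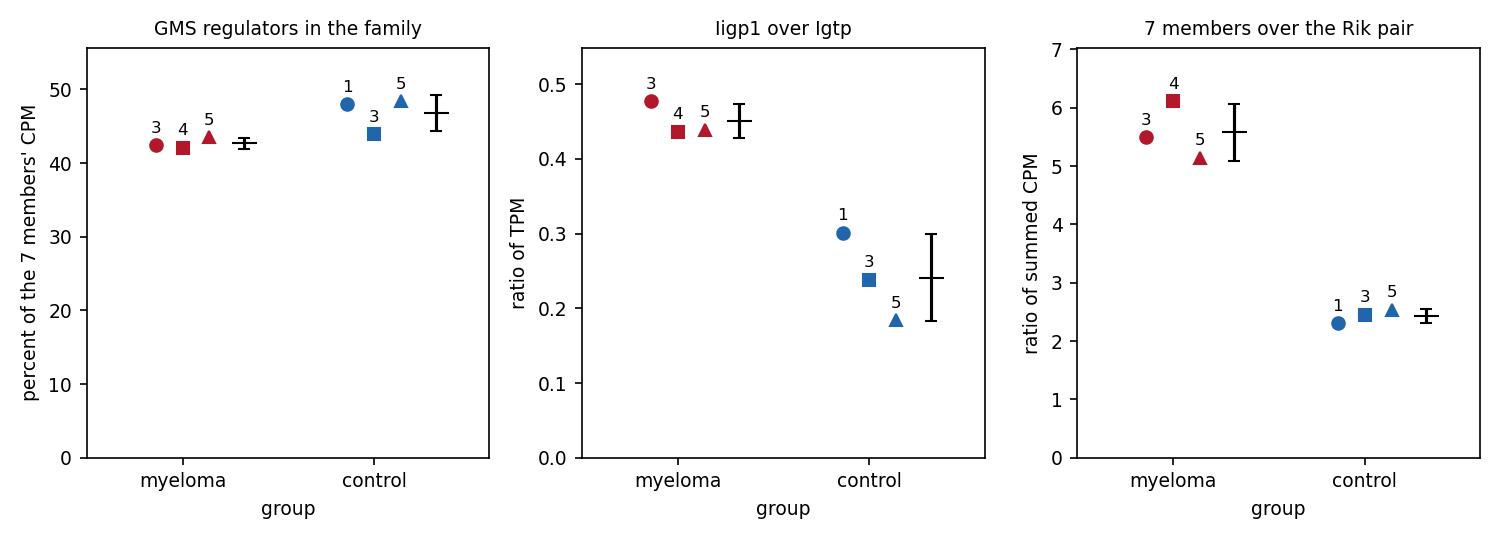
Share of the 3 GMS regulators in the CPM of the 7 members (left), ratio of Iigp1 to Igtp in TPM (middle) and ratio of the 7 members to the summed 9930111J21Rik1 and 9930111J21Rik2 in CPM (right), per library with replicate numbers and with mean and SD (n = 3 each). The Iigp1 to Igtp ratio is 0.436 or more in myeloma libraries and 0.301 or less in control libraries, while the GMS shares of 43.5% (myeloma replicate 5) and 43.9% (control replicate 3) nearly meet. The middle and right ratios were not planned and set genes of greater fold change over genes of smaller, so their separation follows from that choice.

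Myeloma replicate 3 was the highest library of its group for 7 of 7 members. The lowest was replicate 4 for 4 members and replicate 5 for 3. In control cells no library was first throughout, with replicate 5 highest for 4 members, replicate 1 for 2 and replicate 3 for 1. Once each group's mean was removed, the 21 pairs of members had correlations over the 6 libraries between -0.56 and 0.97, with a median of 0.15 and 14 above 0.

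Across the genome, 6 members lie in 2 clusters of chromosome 11. Irgm1, Tgtp1, Tgtp2 and Ifi47 share the proximal cluster with other IRG gene models, and Igtp and Irgm2 share the distal cluster with Gm12250. Of 13 further gene models listed as IRG relatives, 11 could be tested, and 8 were called higher and none lower in myeloma cells, with a median log2 fold change of 1.80 beside 0.02 for all genes tested. One of the 8, Gm43302 on chromosome 5, shares 93% of its 50-base windows with the guanylate-binding protein gene Gbp6 and is no IRG by this measure. Without it 7 of 10 were higher, with a median of 1.77. By an unadjusted p under 0.05 there were 9 of the 11, and DESeq2 called 9.

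Gm12250, listed by RefSeq as Irgb10 and known in mice for acting on bacterial membranes, lies at chr11:58187739-58189012. It had 88.9, 71.4 and 76.7 CPM in the myeloma libraries, against 32.3, 20.4 and 32.3 CPM in the control libraries. The groups lay apart (log2 fold change 1.48, SE 0.17, adjusted p = 0.00176). Gm12185, RefSeq's Irgb2b1, had 45.7, 36.7 and 41.5 CPM in the myeloma libraries, against 11.8, 14.4 and 9.45 CPM in the control libraries, also apart (log2 fold change 1.80, adjusted p = 0.000438). Gm4951 or Ifgga2, on chromosome 18 like Iigp1, had 28.5, 20.8 and 22.9 CPM in the myeloma libraries, against 4.53, 4.23 and 1.6 CPM in the control libraries (log2 fold change 2.81, adjusted p = 0.00199).

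Among the other called models, Gm5431, F830016B08Rik and Gm5970 had fewer counts in myeloma cells than Gm4951. Gm4841 did not, with 47.2, 32.6 and 37.0 CPM in the myeloma libraries, against 18.6, 6.61 and 5.52 CPM in the control libraries. Gm4841 (Ifgga3) rose by 1.93 on the log2 scale (adjusted p = 0.0185), Gm5431 (Irgb9b8) by 2.20 (0.0221), F830016B08Rik (Ifgga4) by 1.74 (0.0411) and the pseudogene Gm5970 by 2.04 (0.0478). Of the windows of Gm5431, 47.6% occur in other genes, so its count is uncertain. Gm5970, at chr18:60220843-60222058, lies within the called Gm4951, at chr18:60212080-60247820, and the library kit does not mark strand. Gm4841, Gm5431, F830016B08Rik and Gm5970 each lost their call when certain single libraries were left out. Among the 11 models 4 were called when myeloma replicate 3 or 4 or control replicate 3 was left out, and 5 without control replicate 5, against 7 without myeloma replicate 5 or control replicate 1.

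The pair 9930111J21Rik1 and 9930111J21Rik2 (Irgb5) lies in the proximal cluster among called genes and did not pass the test. 9930111J21Rik1, at chr11:48946150-48979398, lies within the called Gm12185, at chr11:48904656-48992226, and the library kit does not mark strand. 9930111J21Rik2 had 277, 247 and 307 CPM in the myeloma libraries, against 242, 208 and 219 CPM in the control libraries. The groups lay apart by a small margin, with a log2 difference of 0.31 (95% interval 0.08 to 0.55, adjusted p = 0.086, and 0.0469 with DESeq2). 9930111J21Rik1 had 150, 91.9 and 108 CPM in the myeloma libraries, against 107, 96.2 and 99.7 CPM in the control libraries, and the groups overlapped (log2 difference 0.21, 95% interval -0.15 to 0.57, adjusted p = 0.443).

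The upper ends of both intervals lie under 0.89, the lowest bound of any of the 7 members, though the difference between genes had no test of its own. The ratio of the 7 members to this pair, in CPM, was 5.49, 6.11 and 5.14 in the myeloma libraries, against 2.31, 2.45 and 2.54 in the control libraries. This ratio was not planned and sets called genes over genes that were not called. That its groups lie apart follows from this choice and adds nothing to the fold changes. The copies share 76.2% of the windows of 9930111J21Rik1, so their division is uncertain. Their sum of 428, 338 and 415 CPM in the myeloma libraries, against 350, 304 and 319 CPM in the control libraries, overlapped between the groups. Irgq, a distant relative on chromosome 7, had a log2 difference of -0.13 (adjusted p = 0.57).

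**Figure D3:**
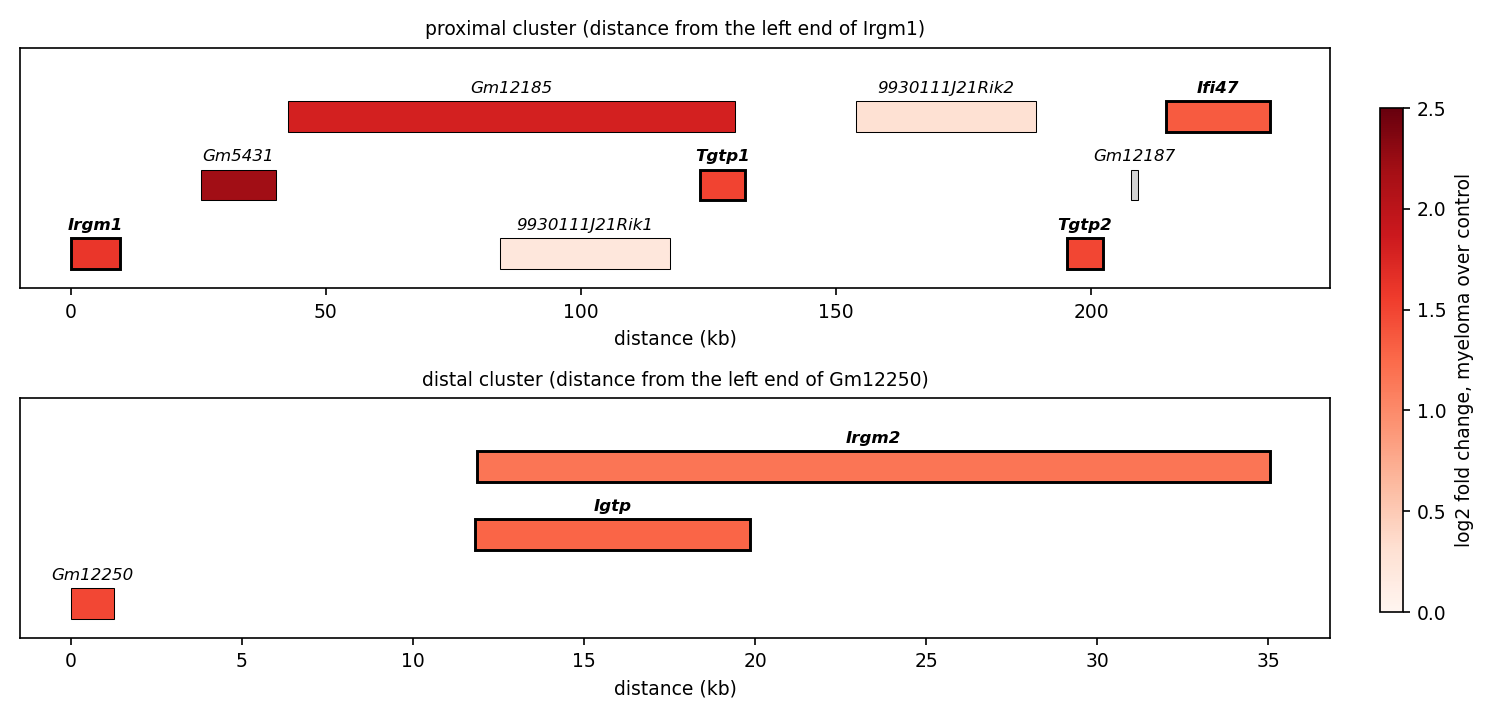
The IRG gene models of both chromosome 11 clusters, drawn to scale as distance in kb from the left end of each cluster (rows only separate overlapping genes) and coloured by log2 fold change, with the 7-member family's genes outlined thickly and the untested Gm12187 in grey. The pale 9930111J21Rik1 and 9930111J21Rik2 (0.21 and 0.31) lie among genes at 1.35 or more.

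The stretch before the gene start was examined because every member was called higher in myeloma cells. A pair of short motifs of interferon signalling were searched on both strands of the 250 bases before each RefSeq gene start (GRCm38.p6). GAAANNGAAA is the core of the interferon-stimulated response element (ISRE), bound by IRF factors. TTCNNNGAA is the core of the gamma-activated site (GAS), an element of interferon gamma signalling. The windows below, in the direction of the gene, show the matches in capitals for the 5 members that had any. Iigp1 was not in the promoter table.

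Irgm1: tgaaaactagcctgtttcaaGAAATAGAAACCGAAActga
Irgm2: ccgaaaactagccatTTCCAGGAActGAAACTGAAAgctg
Igtp: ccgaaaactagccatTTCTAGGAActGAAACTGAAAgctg
Tgtp1: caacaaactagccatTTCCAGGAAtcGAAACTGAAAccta
Tgtp2: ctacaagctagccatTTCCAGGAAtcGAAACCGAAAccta

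The windows are chr11:48871431-48871470 (minus strand) for Irgm1, chr11:58214887-58214926 (plus) for Irgm2, chr11:58199496-58199535 (plus) for Igtp, chr11:48992310-48992349 (minus) for Tgtp1 and chr11:49064269-49064308 (minus) for Tgtp2. In Irgm2, Igtp, Tgtp1 and Tgtp2 a GAS match came first and an ISRE match followed. The ISRE match began 34 bases before the gene start in Igtp, 64 in Irgm2, 70 in Tgtp2 and 77 in Tgtp1. Irgm1 had 2 overlapping ISRE matches, the nearest starting 24 bases before the gene start, and no GAS match. RefSeq starts Irgm1, Irgm2 and Tgtp1 inside their longer GENCODE genes, so these distances refer to the RefSeq start.

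Both motifs were found together in 4 of the 6 members searched, and in 0.332% of all 32851 promoters of the table. The windows of Irgm2 and Igtp are nearly the same, as are those of Tgtp1 and Tgtp2. The 4 are therefore related copies and not separate occurrences. The ISRE core occurred in 2.98% and the GAS core in 7.02% of them. Gm12185 and Gm12250 also had both. Ifi47, Gm5431, 9930111J21Rik1, 9930111J21Rik2 and Irgq had neither in this window, and of these Ifi47 and Gm5431 were called higher while the other three were not called. A match is a run of letters and not a shown binding site.

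**Figure D4:**
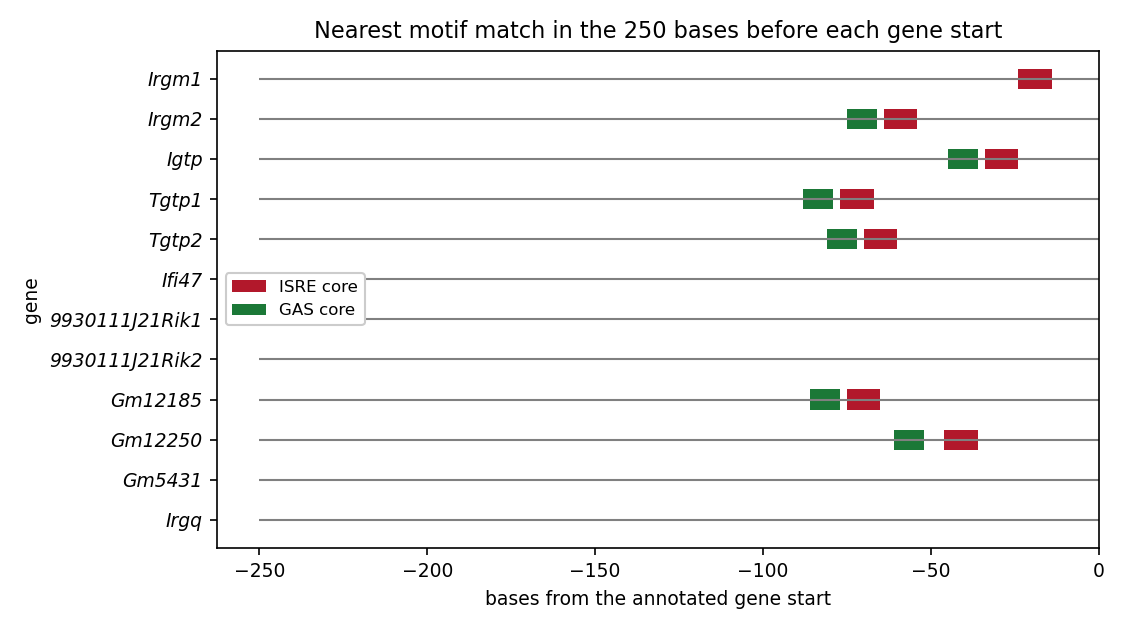
Position of the nearest ISRE-core and GAS-core match in the 250 bases before the RefSeq gene start, in bases, for the 6 searched IRG members and 6 related gene models. In Irgm2, Igtp, Tgtp1, Tgtp2, Gm12185 and Gm12250 the GAS match lies just upstream of the ISRE match.

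The guanylate-binding proteins (GBPs), larger interferon-induced GTPases that act with the IRGs on vacuoles, were called higher for 9 of 11 genes tested, with a median log2 fold change of 0.90. Gbp10 had 155, 145 and 150 CPM in the myeloma libraries, against 30.9, 31.8 and 31.2 CPM in the control libraries (log2 fold change 2.26, adjusted p = 4.45e-06). Gbp6 rose by 1.41 (adjusted p = 6.33e-05), Gbp3 by 0.94 (0.00198) and Gbp2 by 0.90 (0.00104). Gbp2b (-0.15, adjusted p = 0.715) and Gbp11 (0.15, adjusted p = 0.878) were not called. The summed CPM of the 7 IRGs was 0.873, 0.878 and 0.777 of the summed GBPs in the myeloma libraries, against 0.563, 0.559 and 0.637 in the control libraries, with the groups apart. This ratio was not planned. It sets a family with a median log2 fold change of 1.49 over one with 0.90, so it restates the fold changes.

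**Figure D5:**
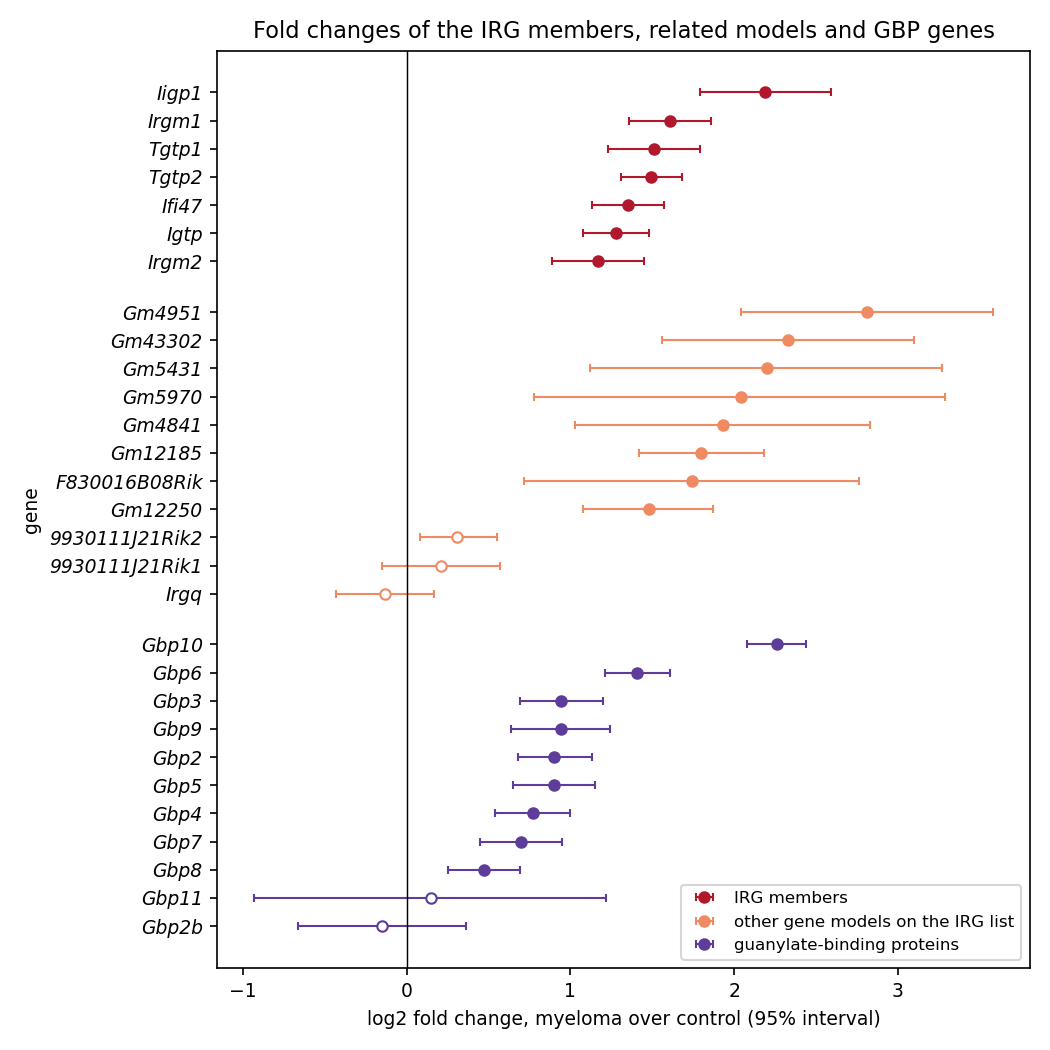
Log2 fold change (myeloma over control) with 95% interval for the 7 IRG members, the 11 other tested gene models on the IRG list and 11 GBP genes. Filled points are called and open points are not. The member intervals run from 0.89 upwards, and the intervals of 9930111J21Rik1 and 9930111J21Rik2 end at 0.57 and 0.55.

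Of the genes listed for interferon gamma signalling, 6 of 12 were called higher and 1 lower, with a median log2 difference of 0.49. The list holds carriers of the signal together with a feedback inhibitor and target genes. Interferon gamma itself, Ifng, had 5.5, 7.44 and 8.84 CPM in the myeloma libraries, against 2.81, 6.79 and 2.9 CPM in the control libraries, and the groups overlapped (log2 difference 0.80, 95% interval -0.12 to 1.73, adjusted p = 0.237).

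The receptor chains Ifngr1 (-0.12, adjusted p = 0.673) and Ifngr2 (-0.34, adjusted p = 0.117) were not called. The kinase gene Jak2 rose by 0.43 on the log2 scale (adjusted p = 0.0151), the feedback inhibitor gene Socs1 by 1.58 (0.0173), Nlrc5, a transactivator of class I genes, by 0.52 (0.0141) and the transcription factor gene Irf1 by 0.45 (0.0397). The kinase gene Jak1 fell by 0.40 (adjusted p = 0.0445). The count of 6 higher became 1 without myeloma replicate 3, 2 without control replicate 5, 3 without control replicate 3, 4 without myeloma replicate 4 or 5 and 5 without control replicate 1. Jak1 was called in none of these 6 fits, and Irf1 in 1.

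Genes of the type I interferon branch were called higher for 5 of 8, with a median log2 difference of 1.13. They include Isg15, a ubiquitin-like protein gene (log2 fold change 3.54, adjusted p = 1.54e-05), Irf7 (2.57, 0.000248) and Usp18, which removes ISG15 (2.33, 0.00022), beside Stat2 (1.45, 0.000575). The 5 were called in each fit that left out 1 library. The receptor chains Ifnar1 (-0.18, adjusted p = 0.284) and Ifnar2 (0.02, adjusted p = 0.924) were not called.

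IRGs and GBPs are directed to vacuoles with help from the autophagy machinery that couples ATG8 proteins to membranes. Of 13 genes of this coupling system none was called by edgeR, DESeq2 or limma-voom, 2 had an unadjusted p under 0.05, and the median log2 difference was -0.11. The nearest to a call was Gabarap, an ATG8 protein gene, with 191, 192 and 174 CPM in the myeloma libraries, against 152, 160 and 146 CPM in the control libraries (log2 difference 0.28, adjusted p = 0.0577). Without myeloma replicate 5 it was called (adjusted p = 0.0481). Atg5, needed in mice for IRG loading, had a log2 difference of 0.26 (95% interval -0.07 to 0.59, adjusted p = 0.282).

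Of 14 genes of autophagy initiation and cargo recognition, 3 were called higher, and the median log2 difference was 0.04. Lgals8, a lectin gene for damaged vacuoles, rose by 0.41 (adjusted p = 0.0212), Lgals3 by 1.13 (0.0307) and the receptor gene Optn by 1.17 (0.0489). In the fits without 1 library, between 0 and 2 genes of this list were called, with none when myeloma replicate 4, control replicate 1 or control replicate 3 was left out. Optn, at 2.58 to 8.66 CPM, was called in 0 of these 6 fits and in 6 of the 13 other alternatives. Lgals3 is also made by macrophages, and its highest value, 44.6 CPM, was in myeloma replicate 5, the library with the most macrophage markers (653 CPM in sum). Their part in this value was not tested.

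Ubiquitin ligases such as TRAF6 and TRIM21 tag vacuoles that IRGs have coated. Of 8 genes listed for this tagging, with a median log2 difference of 0.01, 2 were called higher and 1 lower. Rnf213 had 1934, 1433 and 2059 CPM in the myeloma libraries, against 475, 523 and 713 CPM in the control libraries (log2 fold change 1.66, adjusted p = 0.00108). Trim21 rose by 0.84 (adjusted p = 0.00124), and both were called in each fit without 1 library. Traf6 fell by 0.38 (adjusted p = 0.0205) and was not called in 4 of these 6 fits.

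The genes whose pattern over the 6 libraries was most like the mean pattern of the members, by Pearson's r of log2 CPM among 8548 genes, were Phf11a, Psmb3, Phf11b, Psmb8 and Svbp, with r of 0.997 to 0.998. All 6 libraries enter r, so the step between the groups is part of it. Phf11a had 58.1, 53.9 and 54.0 CPM in the myeloma libraries, against 18.7, 16.8 and 17.2 CPM in the control libraries (log2 fold change 1.65). Psmb8, an immunoproteasome subunit gene, had a log2 fold change of 0.81, and Psmb3, a subunit gene of the standard proteasome, one of 0.19 that was not called (adjusted p = 0.126). With each group's mean removed, r of these 5 genes was 0.69 to 0.929, and other genes came first.

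Total expected counts per library ran from 10240620 to 12008165 in myeloma and from 11688282 to 13314631 in control cells. Of 6 regulatory T cell markers none was called by edgeR, DESeq2 or limma-voom (1 had an unadjusted p under 0.05), and Foxp3 had 1000, 991 and 1068 CPM in the myeloma libraries, against 1247, 1163 and 992 CPM in the control libraries. Markers of other cell types were present. The 12 plasma cell markers summed to 1487, 1918 and 2736 CPM in the myeloma libraries, against 1345, 1373 and 1224 CPM in the control libraries, with 3 of 11 tested called higher. Ighm was the largest part of each sum and was not called (log2 difference 0.12). Jchain had 37.7, 118 and 199 CPM in the myeloma libraries, against 3.67, 0.6 and 3.7 CPM in the control libraries (log2 fold change 5.44, adjusted p = 0.00239). It was called in each fit that left out 1 library, though not by limma-voom (adjusted p = 0.0797). Igkc rose by 3.33 (adjusted p = 0.0175), and Iglc2 had a log2 difference of -1.32 (adjusted p = 0.342). The 11 macrophage and monocyte markers summed to 189, 287 and 653 CPM in the myeloma libraries, against 247, 136 and 175 CPM in the control libraries, with 2 called higher. The 8 neutrophil markers summed to 139, 470 and 424 CPM in the myeloma libraries, against 185, 64 and 164 CPM in the control libraries, with none called (5 had an unadjusted p under 0.05, and DESeq2 called 1). These counts moved when 1 library was left out. With myeloma replicate 3 left out, 4 plasma cell markers were called higher; leaving out myeloma replicate 5 gave 2, as did leaving out control replicate 1, and each of the other three fits gave 1. Of the macrophage and monocyte markers, 3 were called higher with myeloma replicate 3 left out, 2 with control replicate 1 left out and 0 in each of the other four fits. Neutrophil markers called higher numbered 4 with myeloma replicate 3 left out, 1 when either myeloma replicate 5 or control replicate 5 was dropped, and 0 in each of the other three fits.

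Of the B cell markers 4 of 8 were called lower, with sums of 27.7, 39.6 and 69.3 CPM in the myeloma libraries, against 44.5, 221 and 282 CPM in the control libraries. This count was 8 with control replicate 1 left out, 6 with myeloma replicate 5 left out and 1 in each of the other four fits. Of the erythroid markers 5 of 8 were called lower, with sums of 3879, 4818 and 4266 CPM in the myeloma libraries, against 6767, 14797 and 10414 CPM in the control libraries, and 2 were called without myeloma replicate 3 or 4. The dendritic markers without Bst2, itself an interferon-induced gene, summed to 17.6, 21.6 and 46.5 CPM in the myeloma libraries, against 19.3, 20.4 and 25.0 CPM in the control libraries. The 7 natural killer cell markers summed to 1.86, 2.88 and 3.75 CPM in the myeloma libraries, against 3.12, 3.01 and 3.56 CPM in the control libraries. Of 2 CD8 T cell markers none was called by edgeR or DESeq2, and 1 had an unadjusted p under 0.05. No listed marker was at 0 in every library, and the natural killer cell receptor genes Klra8 and Klra4 were at 0 in all 3 myeloma libraries. Myeloma replicate 3, the highest for each of the 7 IRG members, had the lowest plasma cell, macrophage and neutrophil sums of the myeloma libraries. Its Jchain, at 37.7 CPM, was still above every control library. The members' 7 calls were also made in each fit that left out 1 library. The part of these cells in the IRG levels was not tested.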

How the data were processed

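Libraries from sorted marrow regulatory T cells were made with the NEBNext Ultra RNA kit, which does not mark strand, per the labels' protocols. Picard, STAR, RSEM, DESeq2 and mm10 are named in the submitters' processing notes, with versions not given in the sources used here. Per the file headers, each deposited table holds the authors' RSEM expected counts, which are not normalized, and TPM and FPKM, both scaled for depth and effective length. FPKM was not used. Member names were matched without regard to case. Of 47643 gene IDs, 47224 matched the reference names and 419 kept the table's name.

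Expected counts were rounded. Genes kept by filterByExpr (minimum count 10, minimum total 15) were TMM-scaled and then tested by edgeR 4.0.16 in R 4.3.3 (glmQLFit, glmQLFTest), with Benjamini-Hochberg adjustment over 13235 genes and a threshold of 0.05. The SE is the log2 fold change divided by the square root of F. The biological coefficient of variation was 0.202. Adjusted p-values come from this test unless another tool is named, and measure the spread between libraries, since beyond the 3 mice per group of the series design nothing says how the libraries were made. Within groups, libraries differed by 8.77 to 57.8 times the sampling noise (chi-square per degree of freedom), so none was counted as a copy of another.

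All 7 members are named, with other IRG models that passed the filter, 7 fixed interferon gamma genes, up to 4 members of each further list by smallest p, and the 5 genes of most like pattern among genes averaging 10 CPM or more, without immunoglobulin genes and predicted models. Olfr56, Gbp2b, Gbp4, Gbp7, Gbp8, Gbp11, Ifnar1, Ifnar2 and single cell type markers fall outside this rule and were chosen after their values were seen. The ratios between single genes or groups of genes were not planned either. Of the listed genes, 1 is not reported here by name. The members and lists were chosen with earlier results of these data known. Correlations were taken on log2 CPM (prior count 2). Alternatives were no filter, a filter of 1 CPM in 3 samples, upper-quartile and RLE factors, unscaled library sizes, DESeq2 1.42.0, limma-voom (limma 3.58.1), robust dispersion, an offset from the authors' deposited effective lengths, removal of immunoglobulin, haemoglobin and mitochondrial genes, Tgtp1 and Tgtp2 summed, limma on log2(TPM + 1), a block for the replicate number, and each library left out in turn. The test was also run on simulated data with known changes. Gene positions are those of GENCODE M21 (GRCm38), counted from 1.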

Additional observations from a re-analysis of the deposited data

How the results depend on the processing

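All 7 members were called higher under every alternative tried, with 6 of 6 features when Tgtp1 and Tgtp2 were summed. Their log2 fold changes were smallest with limma on log2(TPM + 1), from 0.91 for Irgm2 (adjusted p = 0.0239) to 1.94 for Iigp1. That scale moved the median of all genes to -0.20, and relative to it the members ran from 1.11 to 2.14. The same-numbered libraries correlated at 0.03 (replicate 3) and 0.097 (replicate 5) in their deviations from the group means, so the numbers are not shown to pair samples. With the replicate block, which rests on those numbers, all 7 were called, from 1.25 for Irgm2 (adjusted p = 0.0197) to 2.5 for Iigp1 (adjusted p = 0.000694), while the calls over all genes were 362 higher and 142 lower against 838 and 621 without the block.

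On the log2 scale the summed level differed by 1.47 in CPM, 1.20 in TPM, where the cause was not tested, and 1.41 to 1.51 without 1 library. The regulators' share differed by -4.07 percentage points, with -5.48 to -3.27 without 1 library. The difference in the Tgtp1 share was 0.17 percentage points and 2.63 in TPM, and without 1 library it ran from -1.59 (without control replicate 3) over -0.85 (without myeloma replicate 3) and -0.53 (without myeloma replicate 5) to 1.90, so its direction is not settled.

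Calls over all genes were 633 higher and 1004 lower with library sizes alone, 616 and 372 with the effective-length offset, 275 and 1018 with log2(TPM + 1), 1337 and 1102 with no filter, and 331 and 123 (without control replicate 3) to 836 and 546 (without myeloma replicate 5) when 1 library was left out. On log2(TPM + 1), Gbp4, Gbp7 and Gbp8 were not called (adjusted p = 0.0551, 0.0724 and 0.22), and the log2 difference of 9930111J21Rik1 was -0.04. Gabarap was called with robust dispersion and with the effective-length offset (adjusted p = 0.0455 and 0.0452). Wipi2 and Atg16l1, of the same ATG8 coupling list, were called lower with limma on log2(TPM + 1) (adjusted p = 0.0349 and 0.0454). So was the regulatory T cell marker Il2ra (adjusted p = 0.0225). The median log2 difference of all genes on that scale was -0.2. Low counts limit the smaller IRG models: Gm5431 had 0.542 to 1.37 CPM in control libraries.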
